A study of Mus musculus with 8 samples.

Results

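The genes described here are the interferon response and the class I antigen presentation machinery, as expressed by mouse brain endothelial cells with and without the Wnt pathway ligand Norrin. They were chosen as 36 listed gene symbols, of which 34 equalled the name of a row among the 15452 named rows of the deposited gene table. Isg15 and Mx2, the 2 others on the list, were not analysed here. bEnd.3 is an immortalised endothelial line from mouse brain, and the labels name no other cell type in the cultures. Cells of the first group received recombinant Norrin at 200 ng/ml, added 24 h after seeding, and were harvested 24 h later. Cells of the second group received vehicle, PBS with BSA, according to the titles and the design text, while a treatment tag calls them untreated. Each group held 4 libraries, labelled as biological replicates. How these were kept apart is not stated, and the tests therefore rest on the spread among the cultures at hand.

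Type I interferon binds a receptor made of Ifnar1 and Ifnar2, which passes the signal to transcription factors that include Stat2. In a complex with Irf9, Stat2 acts at the interferon-stimulated response element in the promoters of a large set of antiviral genes. Many cells keep a low level of this programme running without infection. In brain endothelium type I interferon signalling is known for tightening the barrier, and class I molecules let the endothelium display peptides to T cells. Norrin itself acts through Frizzled-4 and beta-catenin, a route separate from the interferon receptor.

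Total counts ran from 12463939 to 15220581 per library. Axin2, the classical beta-catenin target, was at 0.639, 0.142, 0.257 and 0.402 CPM in vehicle replicates 1 to 4 and at 5.89, 5.76, 7.83 and 7.38 CPM in Norrin replicates 1 to 4. Every Norrin library lay above every vehicle library, and Norrin replicate 4 was the second highest. CPM here is the count of a gene set against its library's TMM-scaled total. All 10 listed endothelial markers were in the table, with a summed level of 7536 to 7789 CPM under vehicle and 7249 to 7523 CPM under Norrin, ranges that just miss each other. None of the 10 was called, but Pecam1 (log2 −0.10 ± 0.03, adjusted p = 0.132) and Kdr (−0.11 ± 0.03, 0.104) were lower in every Norrin library than in every vehicle library. The part of this small difference in the results below was not tested. Of 10 leukocyte and microglia markers 3 were in the table, with Cd68 at 90.6 CPM or more in every library and Csf1r and Tmem119 at most at 1.33 CPM. Of 10 fibroblast and mural markers 4 were in the table, with sums of 5.17 to 9.48 CPM under vehicle and 5.71 to 9.002 CPM under Norrin. The RNA is from whole cultures, so a change in the share of cells that express a gene and a change in RNA per cell cannot be told apart.

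No interferon treatment is named in the labels, so the levels described here are those of unstimulated cells as far as the labels say. The letters of the response element, written GAAA, any 2 bases, GAAA, or on the other strand TTTC, any 2 bases, TTTC, were searched in the 250 bases before each transcription start, in the promoter sequences of RefSeq (build GRCm38.p6), which gave a promoter for 29 of the 34 members. At least 1 such run lay before 8 of these 29 genes, or 27.6%, against 3.46% of 27018 genes with a promoter in that table. Those 8 were Stat2, Irf2, Ifit1, Ifit3, Oas1a, Rsad2, Bst2 and B2m. The run can overlap a copy of itself, as it does in Bst2. The stretches below set the only member called with all libraries, Stat2, beside Ifit1, Rsad2, Bst2 and B2m, which were not called. Irf2, Ifit3 and Oas1a also held the run and were not called, at log2 0.11, −0.14 and 0.26, and their stretches are not shown. Capitals mark the runs, in either orientation, and each stretch lies wholly before the start.

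Stat2: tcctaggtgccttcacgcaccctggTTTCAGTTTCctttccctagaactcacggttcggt

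Ifit1: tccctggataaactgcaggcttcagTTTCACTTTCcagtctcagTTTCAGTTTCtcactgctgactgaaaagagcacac

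Rsad2: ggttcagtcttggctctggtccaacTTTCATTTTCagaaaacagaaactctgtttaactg

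Bst2: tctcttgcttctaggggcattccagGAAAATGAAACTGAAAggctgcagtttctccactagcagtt

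B2m: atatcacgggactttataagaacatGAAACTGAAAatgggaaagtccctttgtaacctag

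In GRCm38.p6 the Stat2 stretch is chr10:128270251-128270310 on the plus strand, with its run ending 213 bases before the start. The Ifit1 stretch is chr19:34640760-34640838 on the plus strand, that of Rsad2 is chr12:26456538-26456597 on the minus strand, that of Bst2 is chr8:71537562-71537627 on the minus strand and that of B2m is chr2:122147523-122147582 on the plus strand. Genes with these letters differed in their change. Calls numbered 0 or 1 in each set that follows, which at a share of 2.17% of all tested genes called, and 3.26% without Norrin replicate 4, sets none of them apart. Of the 8 members with the run, 1 was called, and their log2 changes ran from −0.41 in Rsad2 to 0.32 in Stat2 with a median of −0.01. The 21 members with a promoter and no run held no call, with a median of 0.06. Without Norrin replicate 4, each set held 1 call, with medians of 0.07 and 0.10. The gamma-activated site, known from genes that interferon gamma induces, was searched as TTCNNNGAA, which reads the same on both strands. It was found before Ifnar2, Irf1, Irf2, Eif2ak2, Ifit2, Oas1a, Bst2 and Psmb8, also 8 of 29, against 8.13% of all genes, and none of these 8 was called. A match describes the letters of this window and does not show that a factor binds there.

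The levels under vehicle spanned a wide range. Levels of different genes are compared here per length of transcript, as the RPKM value per group that the authors deposited, for which no spread between replicates is given. H2-D1, the heavy chain of a class I molecule, stood highest at 492 under vehicle and 493 under Norrin. B2m, the invariant light chain of class I molecules, followed at 429 under vehicle and 437 under Norrin, and then Bst2, the membrane tether that holds budding viruses on the cell, at 266 under vehicle and 246 under Norrin. These 3 were the only members above 100 RPKM in these columns. The kinase Eif2ak2 and the sensor Ddx58 came next, at 64.1 and 61.6 under vehicle. At the low end, Psmb9, an inducible subunit of the immunoproteasome, was at 1.19 under vehicle and 2 under Norrin, and Rsad2, an antiviral enzyme of the endoplasmic reticulum, at 3.54 under vehicle and 2.71 under Norrin. Counts behind the members ran from 4 for Psmb9 in 1 library to at least 6703 for H2-D1 in every library, and Psmb9 is the least precisely measured of them.

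**Figure D1:**
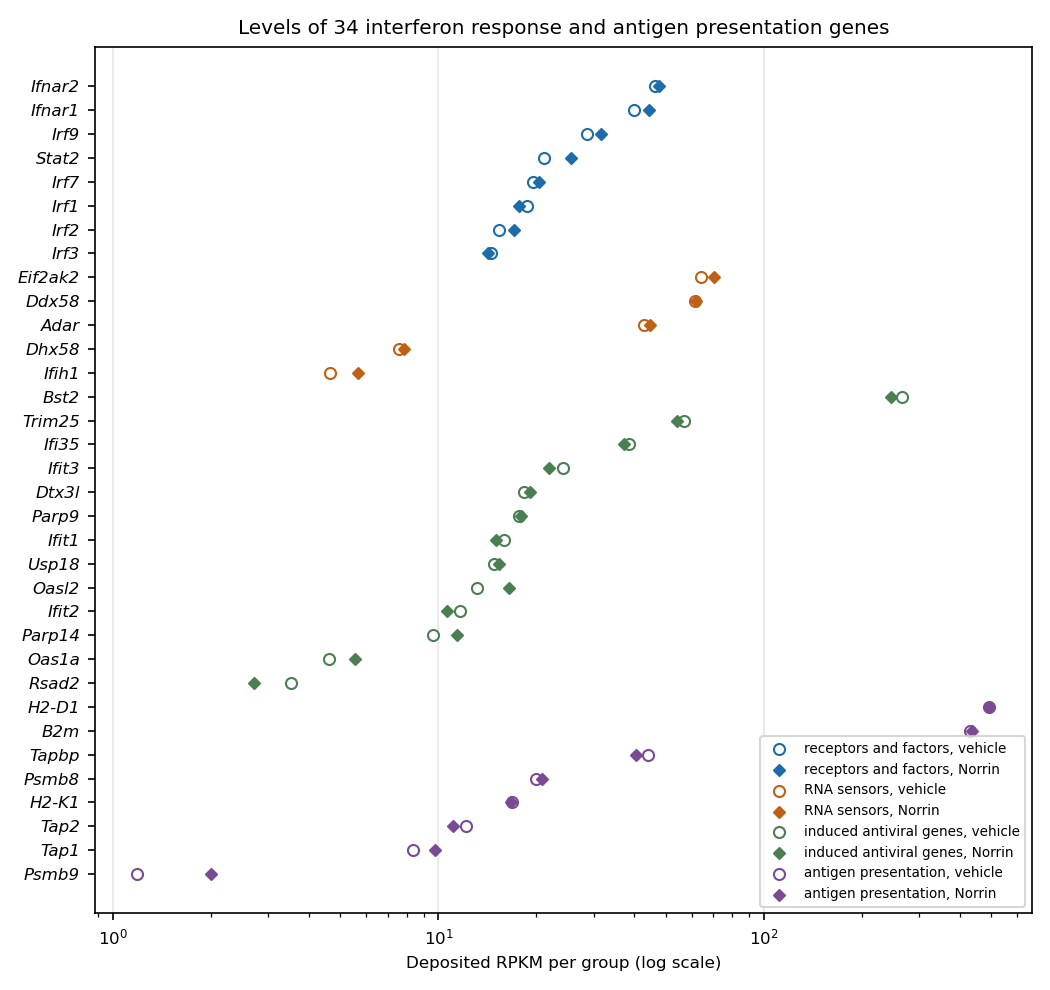
Level of each of the 34 members as the RPKM per group deposited by the authors, on a log scale, with open circles for vehicle and filled diamonds for Norrin, ordered within 4 roles. H2-D1 and B2m lie highest in both groups, and Psmb9 lies lowest, at 1.19 and 2.

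Norrin left nearly all members without a detectable change. All 34 passed the filter on low counts. By edgeR's quasi-likelihood test, with an adjusted p under 0.05 over 13666 genes, 1 member rose, none fell and 33 were not called, while 2.17% of the genes tested were called, 1.2% as higher and 0.966% as lower. DESeq2 also called 1 member, beside 3.06% of its genes, and limma-voom called 0, beside 1.78%. By the unadjusted p, 5 members or 14.7% lay under 0.05, against 11.3% over the whole table. The median log2 change of the members was 0.06, beside 0.00 for all tested genes, and 23 of 34 lay above 0, beside 51.3% of all tested genes. The 95% interval lay within a 1.5-fold change either way for 30 of 34 members, beside 66.9% of all tested genes, so for these 30 a larger change lies outside the interval. The exceptions were Psmb9 (−0.27 to 1.56 on the log2 scale), Rsad2 (−1.01 to 0.18), Oas1a (−0.16 to 0.69) and Oasl2 (0.07 to 0.65).

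Norrin replicate 4 differed from the other Norrin libraries in these genes. It was the lowest of the 4 Norrin libraries in 25 of 34 members, whereas it was the lowest in 27.1% of all tested genes. Norrin replicates 1, 2 and 3 were the lowest in 3, 2 and 4 members. Among the 13 antiviral genes induced by interferon, replicate 4 was the lowest in 11. It was also the lowest of all 8 libraries in 15 members, beside 12.7% of all tested genes. Among 81 other tested genes of the pathway it was the lowest Norrin library in 27. Vehicle replicate 4 was the lowest vehicle library in 35 of those 81, beside 25.2% of all tested genes. It was the lowest vehicle library in 11 of 34 members and in 6 of the 13 antiviral genes. Called results below are given with and without Norrin replicate 4, as the rule by which the genes were chosen asks. Since it was the lowest Norrin library in 25 of 34 members, leaving it out by itself raises the Norrin mean in those members. What set this library apart was not tested. Without it, Stat2, Parp14 and Oasl2 rose and 31 members were not called. That is 8.82% of the members, beside 3.26% of the 13850 genes tested in that fit, 1.7% as higher and 1.57% as lower, and again 5 members had an unadjusted p under 0.05, beside 12.8%. The members' log2 changes then ran from −0.25 to 0.80 with a median of 0.10, and 24 of 34 lay above 0.

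**Figure D2:**
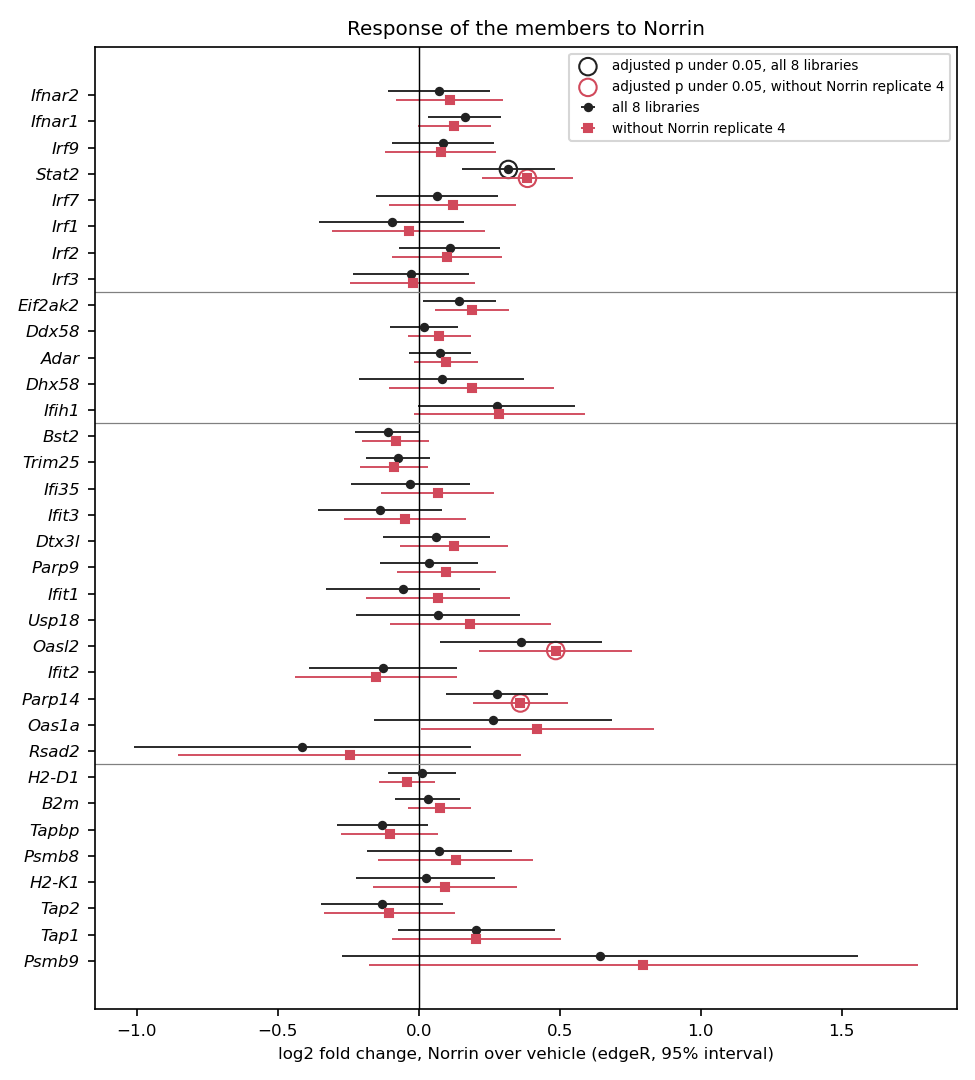
Log2 fold change of each member, Norrin over vehicle, with its 95% interval from edgeR, for all 8 libraries (black circles) and without Norrin replicate 4 (red squares). Large rings mark an adjusted p under 0.05, which Stat2 has in both fits and Parp14 and Oasl2 have only without that library.

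Among receptors and transcription factors, Stat2 was the only one of 8 to rise, by 1.25-fold. The median log2 change of the 8 was 0.08, and 0.10 without Norrin replicate 4. Stat2, a subunit of the complex that type I interferon activates, was at 46.3, 51.8, 53.1 and 49.3 CPM in vehicle replicates 1 to 4. Under Norrin it was at 64.7, 68.2, 63.8 and 53.5 CPM. All 4 Norrin libraries lay above all 4 vehicle libraries, replicate 4 only just, and no other member had groups that did not overlap. Among all tested genes the groups were apart in 7.01%, and in 3.43% with Norrin higher. The mean went from 50.1 ± 2.99 to 62.5 ± 6.33 CPM (SD, n = 4 per group), a log2 change of 0.32 ± 0.08 (SE, adjusted p = 0.028). Without Norrin replicate 4 the change was 0.39 ± 0.08 (adjusted p = 0.00237). Leaving out 1 library ended the call in 6 of 8 cases, all but vehicle replicate 3 and Norrin replicate 4 (adjusted p 0.051 to 0.141), as did limma-voom (0.0696), always with the same direction.

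Ifnar1, a chain of the type I interferon receptor, was at 131, 145, 139 and 148 CPM under vehicle and at 171, 146, 143 and 169 CPM under Norrin. The groups overlapped, with Norrin replicates 1 and 4 above every vehicle library. The log2 change was 0.16 ± 0.06 and did not pass (adjusted p = 0.246, and 0.412 without Norrin replicate 4). Ifnar2, the other chain, was at 36.4, 40.5, 35.5 and 37.4 CPM under vehicle and at 39.9, 43.7, 37.6 and 36.3 CPM under Norrin, which overlapped (log2 0.07 ± 0.09, adjusted p = 0.857). Irf9, the DNA-binding partner of Stat2, was at 35.5, 40.6, 37.8 and 44.3 CPM under vehicle. Under Norrin it was at 44.8, 42, 38.3 and 42.8 CPM, within or just above the vehicle range (log2 0.09 ± 0.09, adjusted p = 0.818).

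Irf1, a factor that drives class I and immunoproteasome genes, was at 18.7, 18.8, 18.9 and 15.1 CPM under vehicle and at 17.1, 18, 17.2 and 14.5 CPM under Norrin. Replicate 4 was the lowest of its group in both arms, and the change did not pass (log2 −0.10 ± 0.13, adjusted p = 0.869). Irf2, which can oppose Irf1, was at 0.11 ± 0.09, and Irf3, the factor that sensors activate to switch on interferon genes, at −0.03 ± 0.10 on the log2 scale. Irf7, the factor that amplifies interferon production, was at 0.06 ± 0.11, with 23.1 to 27.5 CPM under vehicle and 23.1 to 28.6 CPM under Norrin.

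All 5 sensors of foreign RNA and related enzymes had a log2 change above 0, beside 51.3% of all tested genes, and none passed. Their median was 0.08, and 0.19 without Norrin replicate 4. The shared direction did not hold in every fit. Without vehicle replicate 1 Ddx58 was at −0.01, and without Norrin replicate 1 Dhx58 was at −0.02. Eif2ak2, the kinase that halts translation on double-stranded RNA, was at 95, 108, 103 and 102 CPM under vehicle and at 123, 119, 106 and 102 CPM under Norrin. Norrin replicates 1 and 2 lay above the vehicle libraries and the others within their range. Its change was 0.14 ± 0.06 (adjusted p = 0.359), or 0.19 ± 0.06 without Norrin replicate 4 (0.126). Ifih1, a sensor of long double-stranded RNA, was at 0.28 ± 0.14 with 11.6 to 16.7 CPM under vehicle and 15.9 to 19.2 CPM under Norrin (adjusted p = 0.451). Ddx58, the sensor of short RNA with a triphosphate end, was at 0.02 ± 0.06, with a 95% interval of −0.10 to 0.14. Dhx58, a regulator of these 2 sensors, was at 0.08 ± 0.14. Adar, the editing enzyme that keeps cellular RNA from being sensed, was at 0.07 ± 0.05. Its Norrin replicates 1 to 3, at 150.4 to 153 CPM, lay above the vehicle range of 135 to 144 CPM, and replicate 4 was at 142 CPM.

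Of 13 antiviral genes that interferon induces, none was called with all libraries by edgeR, DESeq2 or limma-voom, although 2 had an unadjusted p under 0.05. The log2 change was above 0 in 6 and below 0 in 7, with a median of −0.03, and without Norrin replicate 4 it was above 0 in 8 and below in 5, with a median of 0.07. Parp14, an ADP-ribosyltransferase, was at 46.2, 56.9, 56.4 and 49.7 CPM under vehicle and at 64.8, 67.9, 69 and 52.1 CPM under Norrin. Norrin replicates 1 to 3 lay above every vehicle library, and replicate 4 lay among them. The log2 change was 0.28 ± 0.09 (adjusted p = 0.113), the nearest to the threshold of the members that missed it. Without Norrin replicate 4 it rose by 0.36 ± 0.08 (adjusted p = 0.00738; 0.00738 to 0.327 over all alternatives). Oasl2, a protein related to the oligoadenylate synthetases, was at 16.6, 17.5, 16.5 and 20.1 CPM under vehicle and at 20.1, 29, 25.3 and 16.6 CPM under Norrin. Norrin replicates 2 and 3 were higher than every vehicle library, while replicates 1 and 4 were within the vehicle range or level with its top. The change was 0.36 ± 0.14 (adjusted p = 0.254), and 0.49 ± 0.13 without Norrin replicate 4, which passed (0.0351; 0.0351 to 0.669 over all alternatives).

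Ifit1, Ifit2, Ifit3, Usp18, Rsad2 and Oas1a, which are often read as markers of interferon exposure, did not pass in either fit. Ifit1, which binds foreign RNA caps, was at 23, 22.7, 24.9 and 18.2 CPM under vehicle and at 20.7, 25, 24.3 and 15.6 CPM under Norrin. The groups overlapped, and the lowest value of all was Norrin replicate 4 (log2 −0.06 ± 0.13, or 0.07 ± 0.13 without it). The related genes Ifit2 and Ifit3 were at −0.13 ± 0.13 and −0.14 ± 0.11. How reads that match more than 1 gene of this family were counted is not given, so each of its values may be less certain. Usp18, the protease that removes Isg15 from proteins and restrains the receptor, was at 0.07 ± 0.14, with 14.4 to 20.0 CPM under vehicle and 13 to 19.9 CPM under Norrin. Rsad2 was at 5.43, 5.59, 2.64 and 2.73 CPM under vehicle and at 3.05, 3.28, 4.03 and 1.92 CPM under Norrin, at log2 −0.41 ± 0.29 (adjusted p = 0.684). Vehicle replicates 1 and 2 were high and replicates 3 and 4 low, so the spread within vehicle was wide. Oas1a, an oligoadenylate synthetase that triggers RNA decay, was at 0.26 ± 0.21, or 0.42 ± 0.20 without Norrin replicate 4, and did not pass in either (adjusted p = 0.728 and 0.376). It and its copy Oas1g are closely alike, and how reads that match both were counted is not given.

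Bst2 was at 132, 137, 137 and 146 CPM under vehicle and at 136, 129, 127 and 120.5 CPM under Norrin. Norrin replicates 2 to 4 lay below the vehicle range and replicate 1 within it (log2 −0.11 ± 0.06, adjusted p = 0.474). Trim25, the ubiquitin ligase that assists Ddx58, was at 105 to 112 CPM under vehicle and 101 to 106 CPM under Norrin (log2 −0.07 ± 0.06). Ifi35 was at −0.03 ± 0.10. The ADP-ribosyltransferase Parp9 and the ubiquitin ligase Dtx3l, which form a complex, were at 0.04 ± 0.09 and 0.06 ± 0.09. They are transcribed away from each other and overlap in the GENCODE M21 annotation, and whether counting used strand is not given, so their counts may not be separate. Without Norrin replicate 4, the groups did not overlap in 6 members, or 17.6%, beside 12.5% of the genes tested in that fit, 5.87% with Norrin higher. Stat2, Adar, Oas1a, Parp9 and Parp14 lay wholly above vehicle and Trim25 wholly below.

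**Figure D3:**
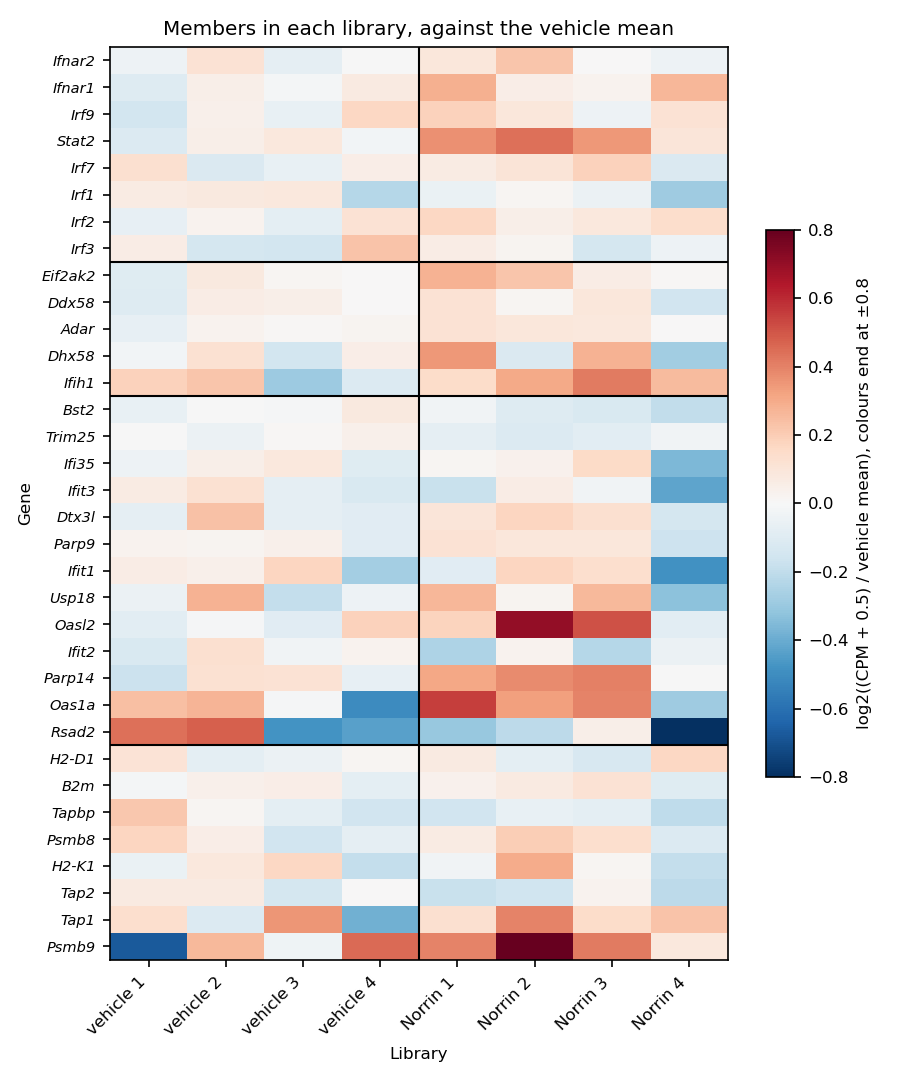
Each member in each library as log2 of CPM + 0.5, minus the mean of that value over the 4 vehicle libraries, red for higher and blue for lower, with horizontal lines between the 4 roles. The Norrin replicate 4 column is blue through most of the antiviral genes, where it is the lowest Norrin library in 11 of 13, and the Stat2 row is red in the other 3 Norrin libraries.

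The antigen presentation genes held no called member of 8, with and without Norrin replicate 4, and none had an edgeR p under 0.05 before adjustment or was called by DESeq2 or limma-voom. Their median log2 change was 0.03, and 0.08 without that library. H2-D1 was at 577, 507, 519 and 541 CPM under vehicle and at 563, 508, 491 and 599.5 CPM under Norrin. The Norrin libraries reached both below and above the vehicle range, and the 95% interval of the log2 change was −0.11 to 0.13. H2-K1, a second class I heavy chain, was at 21.1, 23.2, 24.6 and 19.1 CPM under vehicle and at 21.5, 27, 22.1 and 19.1 CPM under Norrin, likewise overlapping (log2 0.02 ± 0.12). Class I heavy chains are closely alike and differ between mouse strains, and how shared reads were assigned is not given, so the difference in level between H2-D1 and H2-K1 is uncertain. B2m was at 153, 159, 160.0 and 146 CPM under vehicle and at 158, 163, 167 and 144 CPM under Norrin, with replicate 4 the lowest of each group. Its log2 change was 0.03 ± 0.06 with an interval of −0.08 to 0.15, so a change of 1.5-fold lies outside it.

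The peptide transporter subunits Tap1 and Tap2 were at 0.20 ± 0.14 and −0.13 ± 0.11 on the log2 scale, and Tapbp, which holds class I molecules at the transporter, at −0.13 ± 0.08. None passed (adjusted p = 0.647, 0.745 and 0.6). The immunoproteasome subunit Psmb8 was at 14.8 to 18.7 CPM under vehicle and 15.3 to 19 CPM under Norrin (log2 0.07 ± 0.13). Psmb9 was at 0.319, 1.06, 0.772 and 1.29 CPM under vehicle and at 1.22, 2.04, 1.24 and 0.885 CPM under Norrin, where 3 counts equal 0.193 to 0.241 CPM. Its point estimate was the highest among the members and its standard error the widest (0.64 ± 0.45, adjusted p = 0.676). Psmb9 and Tap1 are transcribed away from each other and overlap in the annotation. In all 9 members have exons that overlap another gene of the table. Among them, Irf9 overlaps Rnf31 and Tapbp overlaps Zbtb22 on the same strand, so their counts may include shared reads. Irf3, Irf7 and Eif2ak2 overlap a gene on the opposite strand.

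**Figure D4:**
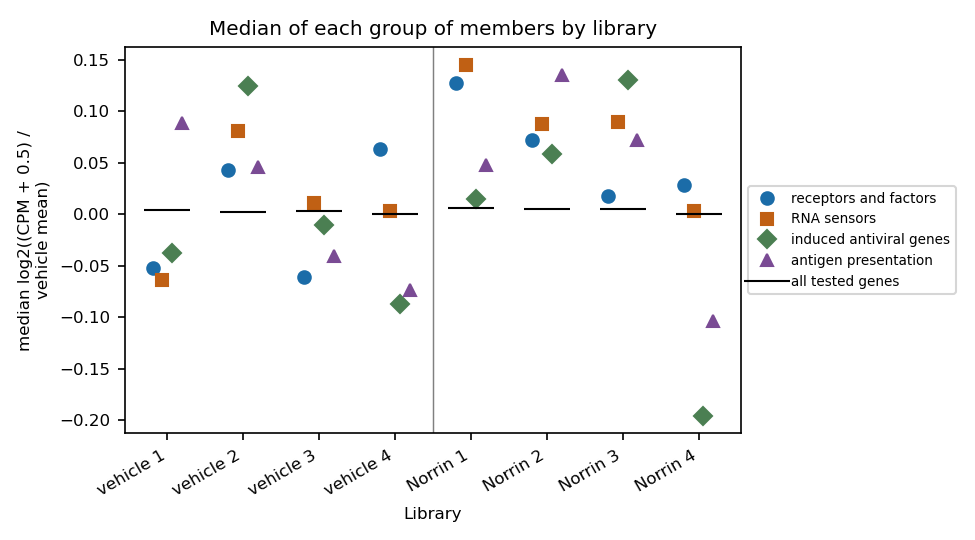
Median over the members of each role of log2 CPM + 0.5 minus the vehicle mean, by library, with black bars for the median of all tested genes. For the induced antiviral genes the median is −0.20 in Norrin replicate 4 and between 0.01 and 0.13 in Norrin replicates 1 to 3, and the bars lie between 0.00 and 0.01.

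The medians by role show where the libraries differed. For the induced antiviral genes, vehicle libraries ranged from −0.09 to 0.12 around their own mean, and Norrin replicates 1 to 3 lay within or just above that range. Norrin replicate 4, at −0.20, lay below every vehicle library. For receptors and factors the Norrin libraries ran from 0.02 to 0.13, with replicate 4 at 0.03 and not the lowest. For antigen presentation replicate 4 was at −0.10, below the other Norrin libraries at 0.05 to 0.13. For the RNA sensors Norrin replicate 4 was at 0.00, also below the other Norrin libraries at 0.09 to 0.15. That value lay within the vehicle range of −0.06 to 0.08.

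Other genes of the pathway were called in both directions. Of 117 further listed genes, 83 were in the table and 81 were tested, and 4.94% of them were called, 2 as higher and 2 as lower, beside 2.17% of all tested genes. Their median log2 change was −0.02. Rows of the table appear to be chosen on the vehicle value, so listed genes silent under vehicle would not be among those tested. Without Norrin replicate 4, 4 rose and 2 fell, or 7.41%, beside 3.26% of all genes tested in that fit. All of these belonged to the 45 tested induced genes. The 36 tested genes of the other groups held no call in either fit, which is near what the shares over all genes give for so few.

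Ifitm3, a membrane protein that blocks virus entry, was at 115, 106, 116 and 106 CPM under vehicle and at 154, 148, 129 and 122 CPM under Norrin. Every Norrin library lay above every vehicle library. It rose by 0.32 ± 0.07 (adjusted p = 0.00426), and by 0.38 ± 0.06 without Norrin replicate 4 (0.000196). The neighbouring family member Ifitm2 was at 67.6 ± 2.42 and 67.6 ± 3.35 CPM (log2 interval −0.14 to 0.14). Xaf1, a proapoptotic interferon target, was at 83.7, 78.1, 83.7 and 78 CPM under vehicle and at 92.9, 93.3, 101 and 78.1 CPM under Norrin. It passed only without Norrin replicate 4, which sat in the vehicle range (0.18 ± 0.07 with it, adjusted p = 0.27, and 0.24 ± 0.06 without, 0.0285; 0.0285 to 0.647 over all alternatives).

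The guanylate-binding proteins, interferon-induced GTPases that attack intracellular pathogens, split. Gbp4 was at 86.5, 87.9, 89.9 and 72.4 CPM under vehicle and at 62.9, 60.1, 61.4 and 49.1 CPM under Norrin, and the groups were well apart. It fell by 0.53 on the log2 scale (SE 0.08, adjusted p = 0.000104). Gbp9 was at 364, 408, 448 and 394 CPM under vehicle and at 336, 346, 347 and 302 CPM under Norrin, again without overlap. It fell by 0.28 (SE 0.06, adjusted p = 0.00452). Both falls kept their call without Norrin replicate 4, at 0.45 and 0.23 (0.000196 and 0.00742). Exons of Gbp4, Gbp8 and Gbp9 overlap on the same strand in the GENCODE M21 annotation, so the 2 falls may rest in part on shared reads, and members of the family are closely alike in sequence. Gbp8 lies outside the list and is added for this overlap, with its values known. Its log2 change was −0.22 ± 0.16 and did not pass (adjusted p = 0.693).

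Gbp5, which supports inflammasome assembly, moved the other way, from a very low level. It was at 2, 0.283, 1.67 and 1.61 CPM under vehicle and at 5.08, 4.09, 2.85 and 2.88 CPM under Norrin, so every Norrin library was above the vehicle range. It rose by 1.43 ± 0.38 (adjusted p = 0.0378), and by 1.53 ± 0.40 without Norrin replicate 4 (0.0258). Leaving out any of 5 libraries (vehicle replicates 2 to 4, Norrin replicates 1 and 2) ended the call, with an adjusted p of 0.0788 to 0.197, as did limma-voom (0.0687). Without vehicle replicate 2, where Gbp5 stood at 4 counts, the change was 1.08. Gbp3 was at 40.2, 39.9, 45.8 and 38.6 CPM under vehicle and at 49, 52.1, 53.2 and 33.2 CPM under Norrin. Norrin replicates 1 to 3 lay above the vehicle range and replicate 4 below it, and the gene passed only without that library (0.32 ± 0.09, adjusted p = 0.0339, against 0.19 ± 0.12 and 0.627 with it; 0.0339 to 0.83 over all alternatives). The promoter of Gbp5 held both motifs in RefSeq. Of 67 further pathway genes with a promoter, 17 held the response element run and 12 the gamma-activated site. Gbp7, Igtp, Irgm2, Tgtp1 and Myd88 also held both, and none of these was called in either fit. Ifitm3, Gbp4 and Gbp9 were not among the genes with either motif. The run of Gbp5 is shown because Gbp5 rose most, in log2 change, among the called genes of the pathway.

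Gbp5: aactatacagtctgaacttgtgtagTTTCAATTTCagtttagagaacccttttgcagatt

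The Gbp5 stretch is chr3:142496744-142496803 on the plus strand in GRCm38.p6.

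**Figure D5:**
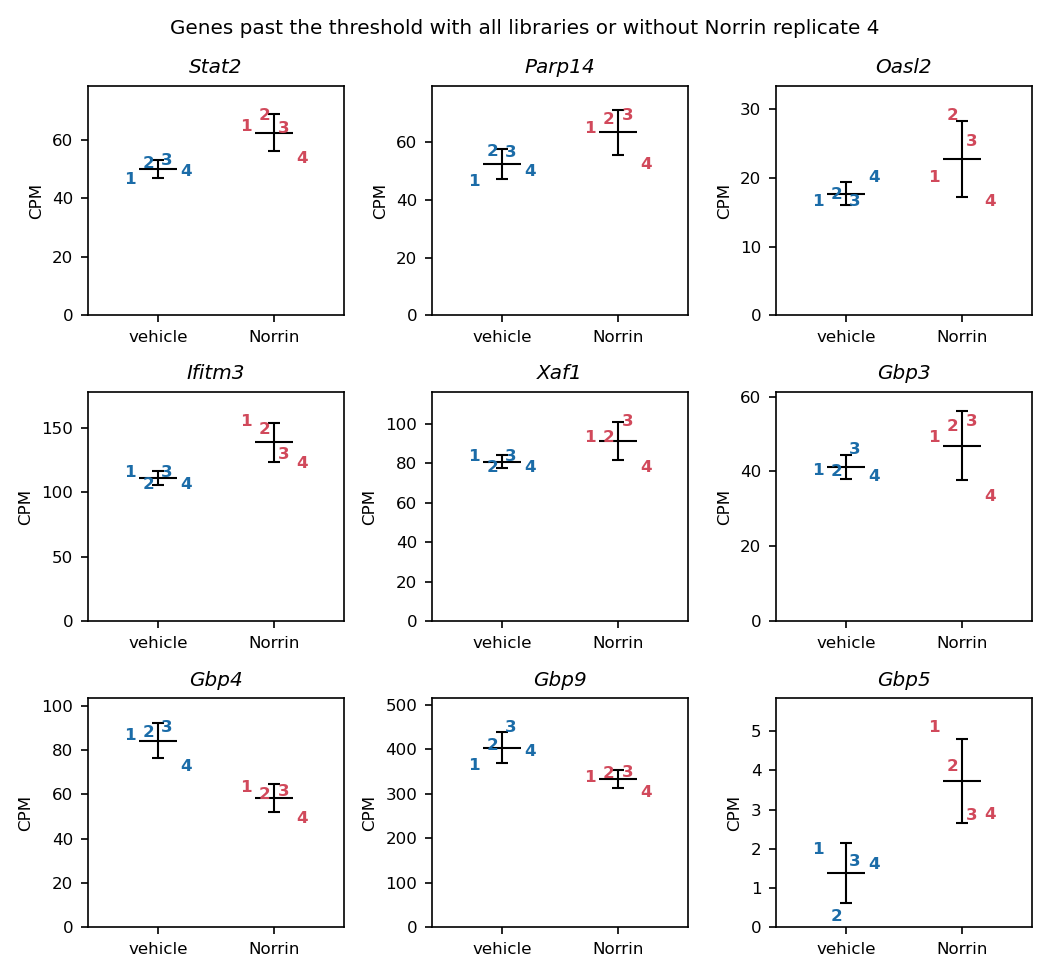
CPM in each library, plotted as its replicate number, with the mean and SD of 4 libraries per group, for the 9 genes called with all libraries or without Norrin replicate 4. Ifitm3, Stat2 and Gbp5 are higher and Gbp4 and Gbp9 lower in all 4 Norrin libraries, while replicate 4 lies below the vehicle libraries in Gbp3 and among them in Xaf1, Parp14 and Oasl2.

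Of the signalling genes outside the member list, those named here did not pass. The kinase Jak1 was at a log2 change of −0.07 ± 0.04, with every Norrin library (283 to 296 CPM) just below every vehicle library (299.8 to 315 CPM). On the same scale the interferon gamma receptor chain Ifngr2 was at 0.10 ± 0.08 and the phosphatase Ptpn2 at 0.06 ± 0.14. The kinase Tbk1 and the adaptor Tmem173, which act between sensors and Irf3, were at 0.05 ± 0.06 and 0.04 ± 0.10. Ifne was the one ligand gene of the list in the table, at 1.68 ± 1.2 and 2 ± 0.403 CPM, and did not pass (0.887). In the presentation list none of 13 tested genes was called, and 1 had an unadjusted p under 0.05. Among them were the chaperones Calr and Canx, at log2 −0.06 ± 0.03 and −0.05 ± 0.03. The groups did not overlap for Calr, with Norrin lower, and overlapped for Canx.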

How the data were processed

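RNA-seq of 8 cultures of bEnd.3 cells was analysed, 4 given vehicle and 4 given Norrin. In 1 deposited table the authors give estimated counts for each gene in each library, the RPKM of each group over its replicates, and the ratio of both RPKM values as a fold. STAR is the tool named, per the submitters' processing notes. Build, counting tool and strand use: each was not given in the sources used here. Of 123616 counts, 763 were not whole, and counts were rounded. The lowest deposited vehicle RPKM was 0.1, while 439 genes had a Norrin RPKM below 0.1, so rows appear to be chosen on the vehicle value, and a gene silent under vehicle would not be among them.

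The main test was the two-sided quasi-likelihood test of edgeR 4.0.16 (R 4.3.3), with filterByExpr, TMM and a robust fit, Benjamini-Hochberg adjusted across all 13666 genes that passed the filter, at 0.05. The filter left out 1786 genes and passed all 34 members. Errors are SD over n = 4 for CPM and SE for log2 changes, and intervals are 95%. Replicate variation was 11.2% (coefficient of variation, common dispersion). The floor of 3 counts covers counting error only. Members and lists were chosen with earlier results of these data known. Values in every library are given for members called with or without Norrin replicate 4 or at an unadjusted p under 0.05, the highest by RPKM in each role, and B2m, H2-K1, H2-D1, Irf9 and Irf1. Further genes of the pathway are named if called in either fit, with up to 2 of the highest RPKM per group, except 1 that is not reported here. Alternatives were other size factors, other filters, DESeq2 1.42.0, limma-voom (limma 3.58.1), a replicate block, leaving out each library, and a threshold of 0.01. Overlapping exons came from GENCODE M21 (GRCm38), promoters from RefSeq.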

Additional observations from a re-analysis of the deposited data

Results flagged for a closer look

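Among 100 groups of 4 libraries (34 members and 16 further genes in both arms), 4 held a library far from the other 3, where chance gives about 1 in 20 groups. Irf1 was at 15.1 CPM in vehicle replicate 4, against 18.7 to 18.9 CPM in the other vehicle libraries. Parp9 was low in replicate 4 of both arms, at 39.5 CPM under vehicle against 42.7 to 43.3 CPM, and at 37.5 CPM under Norrin against 44.7 to 45.6 CPM. Its neighbour Dtx3l was at 48.6 CPM in vehicle replicate 2, against 38.6 to 39.1 CPM in the other vehicle libraries.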

How the results depend on the processing

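With all libraries 296 genes, 1 member and 4 further genes of the pathway were called. At a threshold of 0.01 these counts were 171, 0 and 3, and limma-voom called 0 members. Leaving out 1 library at a time gave 206 to 452 genes, 0 to 3 members and 3 to 6 further genes, the highest of each without Norrin replicate 4. DESeq2 called 409 genes and 1 member. Of 34 members under 16 alternatives, none changed sign while called, 8 changed sign without a call in any fit, 8 results lost a call, all for Stat2, and 2 gained one (Parp14 and Oasl2). Whether replicate numbers pair the libraries is not stated. Deviations of same-numbered libraries correlated at −0.08 to 0.19, and 1 of 4 Norrin libraries correlated best with its own number. These values do not settle whether the libraries are paired. With the replicate number as a block, 402 genes, 1 member and 4 further genes were called. The median of all genes moved by at most 0.01 (log2) over the scalings. For Psmb9, Rsad2, Oas1a and Oasl2 a change of 1.5-fold lies inside the interval. Psmb9, at 4 to 28 counts per library, had the fewest counts of the members.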
